A study of Homo sapiens with 6 samples.

Results

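The 10 mouse genes described here encode enzymes of glycolysis and of the final step to lactate. They were taken by Ensembl gene ID from a table of 77134 rows, and all 10 were found and passed the filter on low counts, as did 12637 rows in all. The table gives no gene names: the name of each ID came with the list of members. In pathway order they were Hk1 (ENSMUSG00000037012.19), Hk2 (ENSMUSG00000000628.11), Gpi1 (ENSMUSG00000036427.6), Pfkl (ENSMUSG00000020277.11), Aldoa (ENSMUSG00000030695.17), Tpi1 (ENSMUSG00000023456.17), Gapdh (ENSMUSG00000057666.19), Pgk1 (ENSMUSG00000062070.13), Pkm (ENSMUSG00000032294.18) and Ldha (ENSMUSG00000063229.16). Positions of these genes in the mouse genome were not used here.

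The RNA came from 6 subcutaneous tumours of A549, a human lung adenocarcinoma line, in nude mice of the BALB/c strain, which have no thymus. In 3 tumours the cells stably carried the lentiviral construct pLV-CMV-HIF1A-AS3-EGFP-Neo, which drives the antisense RNA HIF1A-AS3 from a CMV promoter, and in the other 3 the empty pLV-CMV-EGFP-Neo, so that both groups shared the vector backbone, EGFP and the Neo cassette. The labels do not say whether a stable line was 1 clone or a pool, how old the mice were, when tumours were taken, or whether each tumour grew in a mouse of its own; the p-values below therefore reflect only the scatter among these 6 tumours, which may be partly technical.

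Glycolysis splits glucose into pyruvate in the cytosol and yields ATP without oxygen. Hexokinases, phosphofructokinase and pyruvate kinase catalyse its irreversible steps, while the enzymes between them work near equilibrium. HIF-1, the hypoxia-inducible transcription factor whose alpha subunit is encoded by HIF1A, is well known to activate most genes of the pathway, among them Hk2, Aldoa, Pgk1 and Ldha. Tumour cells and activated macrophages are both known for high glycolytic flux.

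All rows were mouse genes, so these values describe host cells in the tumour together with any human tumour RNA similar enough to be counted there. Glycolytic enzymes are strongly conserved, and the part of human RNA in each row was not tested. Mammalian genomes also hold processed pseudogenes of several of these genes, Gapdh above all, and the estimates of 9 of the 10 were not whole numbers in at least 1 library, which can happen when reads fit more than 1 gene. Only Hk1 was whole in all 6 libraries, and 6 members (Gpi1, Aldoa, Gapdh, Pgk1, Pkm and Ldha) were non-whole in every library. Over all genes tested, 77.8% were non-whole somewhere and 39.3% everywhere. Markers of A549 cells or of host cell types could not be set beside these values, because the other IDs carry no names, and in bulk RNA fewer cells of a type and less RNA per cell cannot be told apart.

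Libraries held 4272525 to 4769157 estimated counts in the overexpression group and 4167784 to 4262778 in the controls. Some libraries stood apart. In overexpression replicate 1 only 17406 genes had a rounded count of 1 or more, where the remaining 5 libraries had 18796 to 19063; its 20 most abundant genes held 15.7% of counts against 10.98% to 12.8% elsewhere, and its TMM scaling factor was 0.742 against 1.02 to 1.10. Overexpression replicate 2 was closer to the controls than to its own group, its Pearson r across genes averaging 0.951 against the controls and 0.908 against overexpression replicates 1 and 3. Replicate 3 was about as close to either group, at 0.923 against the controls and 0.920 against its own group. Each gene's estimate without overexpression replicate 1, 2 or 3 is given beside its result. HIF1A-AS3 itself, a human RNA, was not analysed here.

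The comparison asks how glycolytic transcripts in the tumours differed when the A549 cells overexpressed HIF1A-AS3. None of the 10 genes passed the threshold. Point estimates were uneven: Aldoa, Tpi1, Gapdh and Pgk1, the enzymes of consecutive steps, averaged 1.55-fold to 1.72-fold higher in overexpression tumours. Ldha averaged 1.28-fold higher, and Hk1, Hk2, Gpi1, Pfkl and Pkm lay between 0.833-fold and 1.08-fold. This grouping was seen after the fact, and a tie to pathway position was not tested. Without overexpression replicate 1 the log2 fold change was 0.31 for Aldoa, 0.32 for Tpi1, 0.53 for Gapdh, 0.32 for Pgk1 and 0.15 for Ldha. The overexpression tumours disagreed with each other on most of these genes, and the controls lay closer together for every gene but Hk2.

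At an adjusted p below 0.05 (edgeR quasi-likelihood test, Benjamini-Hochberg over all genes tested), 0 of the 10 were called, beside 0.0158% of all genes tested. Adjusted p ranged from 0.70 to 0.99 for the 10 genes. Without adjustment, 1 of the 10, Tpi1, had an edgeR p below 0.05, beside 6.29% of all genes. The p of Tpi1 was above 0.05 with limma-voom (0.060), with library totals in place of TMM (0.16), with a block by replicate number (0.061) and, at 0.064 to 0.17, with any single library left out other than overexpression replicate 3. None of the 10 had an unadjusted p below 0.05 with limma-voom, beside 5.59% of all genes, with library totals, beside 5.53%, with the block, beside 3.28%, or in edgeR without overexpression replicate 1, beside 4.69%. DESeq2 on the same genes called none of the 10 after adjustment, beside 0.222% of all genes, but found 4 at an unadjusted p below 0.05, Aldoa, Tpi1, Gapdh and Pgk1, beside 6.89% of all genes. In edgeR on unfiltered rows the same 4 had an unadjusted p below 0.05, beside 5.67% of all genes. Without overexpression replicate 2 there were 3 (Hk1, Aldoa and Gapdh), beside 20.5%. Tpi1 and Pgk1 did so without replicate 3, beside 7.3%, and with robust fitting off, beside 6.24%. Without control replicate 1 or 3 there were 0, beside 2.51% and 3.31%. Leaving out control replicate 2 gave 1, Gapdh, at an unadjusted p of 0.049 in edgeR, beside 4.39%. The median log2 fold change was 0.23 over the 10 and 0.0065 over all genes tested, with 7 of the 10 and 6400 of 12637 above 0. With library totals in place of TMM the median of all genes was -0.21 and 5 of the 10 were above 0: Hk2 and Pfkl turned to the negative side.

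**Figure D1:**
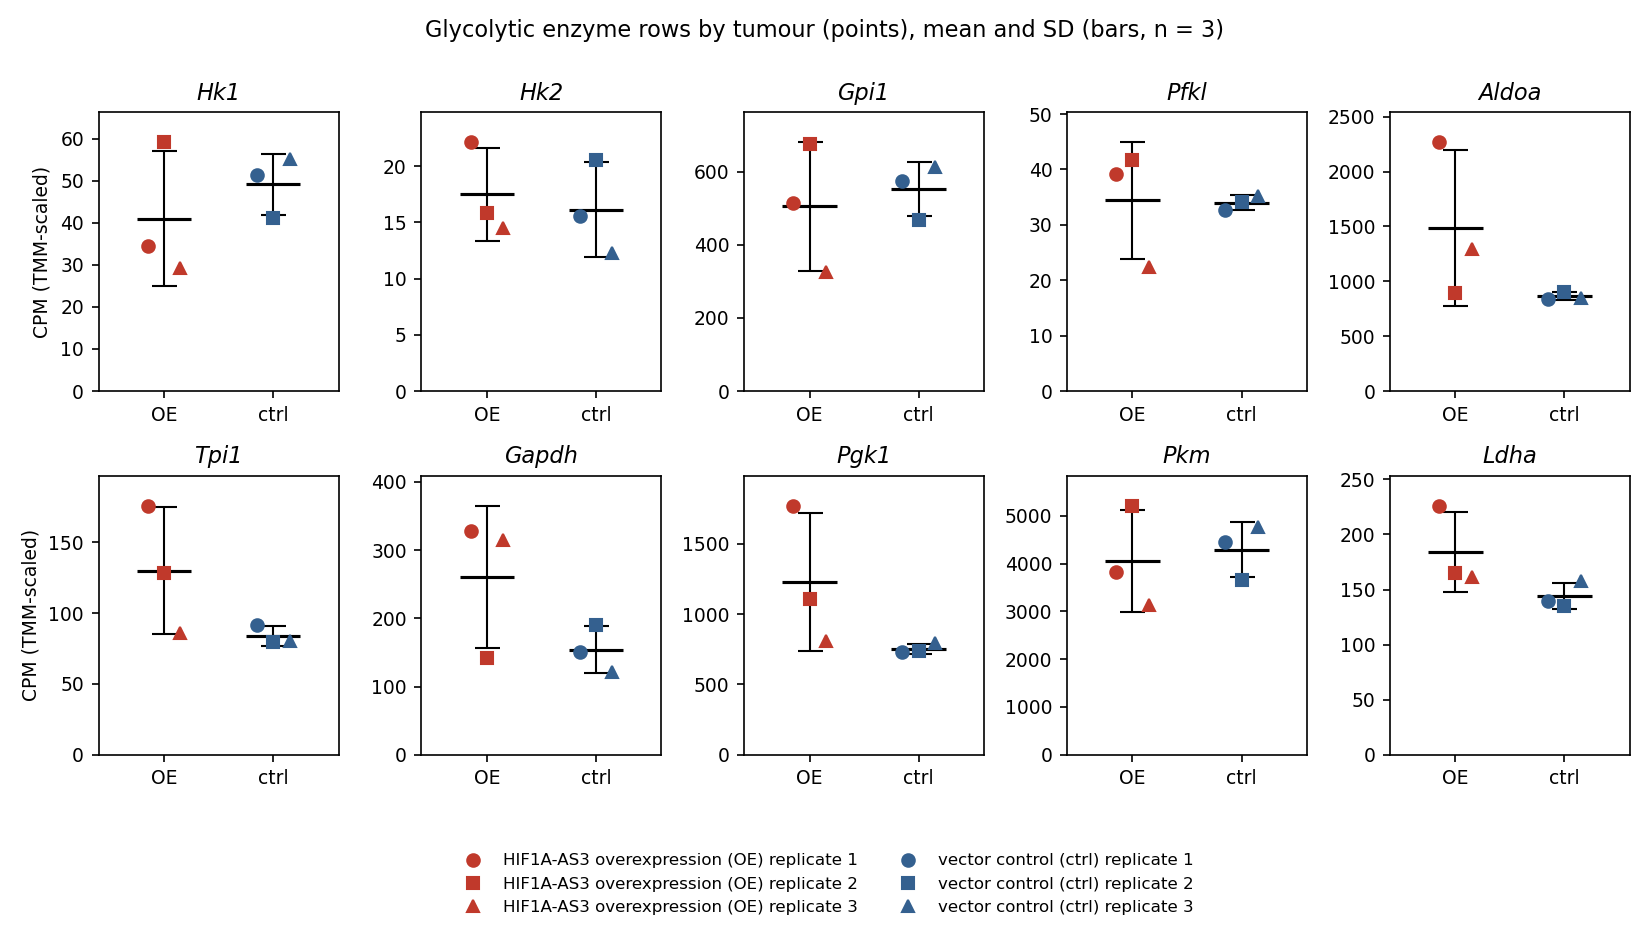
CPM (counts scaled by library total and TMM factor; each axis starts at 0) of the 10 enzyme genes in each tumour, HIF1A-AS3 overexpression (OE) left and vector control (ctrl) right; points are tumours, with shapes for replicate numbers, lines are means and bars SD (n = 3). The controls lie close together for Aldoa, Pgk1 and Pfkl, and overexpression replicate 1 is the highest point for 6 genes.

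**Figure D2:**
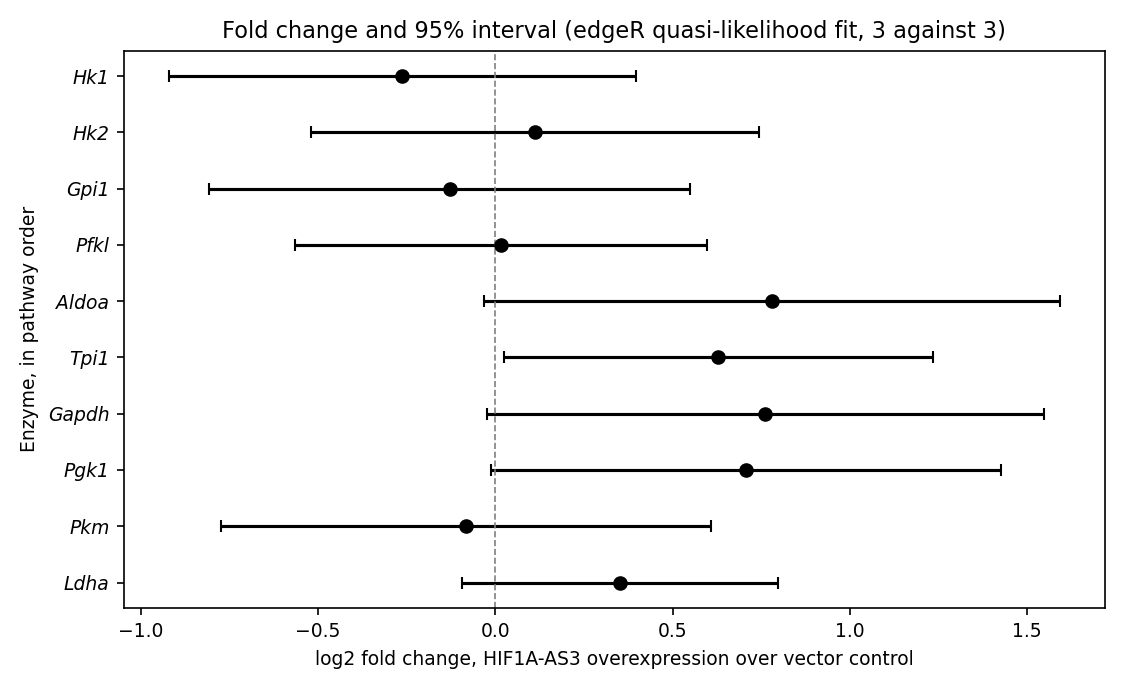
The log2 fold change of each enzyme gene, overexpression over control, with its 95% interval from the edgeR fit (points and bars, 3 tumours against 3, not adjusted for the number of genes). Aldoa, Tpi1, Gapdh and Pgk1 lie between 0.63 and 0.78, and the interval of Tpi1 alone leaves out 0.

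Glucose is first phosphorylated by hexokinase, of which Hk1 is the broadly expressed form and Hk2 the inducible one. Hk1 had 34.4, 59.2 and 29.2 CPM in overexpression replicates 1 to 3, against 51.2, 41.2 and 55.2 CPM in control replicates 1 to 3. Overexpression replicates 1 and 3 lay below every control and replicate 2 above every control, so the groups overlapped. Hk1 gave a log2 fold change of -0.26 (SE 0.28, 95% interval -0.92 to 0.40, adjusted p = 0.82 in edgeR). It was -0.19 without overexpression replicate 1, -0.63 without replicate 2 (adjusted p = 0.16 in edgeR) and -0.075 without replicate 3.

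Hk2 was the row with the fewest counts, 57 to 91 per library, where counting alone gives an SD of up to 13.2%. It stood at 22.2, 15.8 and 14.5 CPM in overexpression tumours and at 15.6, 20.6 and 12.2 CPM in controls, in replicate order. The highest library was an overexpression tumour and the lowest a control, with the other 4 mixed between them. Its log2 fold change was 0.11 (SE 0.27, adjusted p = 0.92 in edgeR), and the 95% interval ran from 0.698-fold to 1.67-fold. The estimate was -0.12, 0.18 and 0.23 with overexpression replicate 1, 2 or 3 left out, in that order.

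Gpi1, the isomerase that turns glucose-6-phosphate into fructose-6-phosphate, had 514, 678 and 326 CPM in overexpression replicates 1 to 3 and 576, 470 and 613 CPM in controls 1 to 3. Its highest and lowest libraries were both overexpression tumours, with all controls between them. In the fit Gpi1 had a log2 fold change of -0.13 (SE 0.29, adjusted p = 0.92 in edgeR), and it was -0.17, -0.39 and 0.10 without overexpression replicate 1, 2 and 3, in that order.

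Pfkl is the liver-type subunit of phosphofructokinase, which commits fructose-6-phosphate to glycolysis. Its levels were 39.2, 41.7 and 22.3 CPM in overexpression tumours, against 32.6, 34.2 and 35.2 CPM in controls. The controls spanned 1.08-fold and the overexpression tumours 1.87-fold around the same centre: the means were 34.4 ± 10.6 CPM in overexpression tumours and 34.0 ± 1.30 CPM in controls (SD, n = 3 each). Pfkl had a log2 fold change of 0.016 (SE 0.25, adjusted p = 0.99 in edgeR), with a 95% interval from 0.676-fold to 1.51-fold. Without overexpression replicate 1 or 2 it was negative, at -0.12 and -0.15, and without replicate 3 it was 0.25.

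Aldoa, the aldolase that cleaves fructose-1,6-bisphosphate into triose phosphates, reached 2270, 891 and 1299 CPM in overexpression replicates 1 to 3, against 838, 906 and 852 CPM in controls 1 to 3. Overexpression replicates 1 and 3 exceeded all controls, and replicate 2 fell inside their range. Means were 1486 ± 709 CPM in overexpression tumours and 865 ± 36.2 CPM in controls (SD, n = 3 each), so the gap of the means was smaller than the SD of the overexpression group. Aldoa had a log2 fold change of 0.78 (SE 0.35, 95% interval -0.032 to 1.59, unadjusted p = 0.058 and adjusted p = 0.70 in edgeR). Without overexpression replicate 1 it was 0.31, without replicate 2 it was 1.05 and without replicate 3 it was 0.87.

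Tpi1 interconverts the triose phosphates that aldolase releases. It measured 176, 128 and 86.0 CPM in overexpression tumours and 91.9, 79.8 and 80.2 CPM in controls. Overexpression replicates 1 and 2 were above all controls, and replicate 3 was below control replicate 1. Its log2 fold change of 0.63 (SE 0.26, 95% interval 0.024 to 1.23) came with an unadjusted p = 0.043 and adjusted p = 0.70 in edgeR, and it was 0.32 without overexpression replicate 1, 0.64 without replicate 2 and 0.85 without replicate 3.

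Gapdh oxidises glyceraldehyde-3-phosphate and is widely used as a reference transcript. Its levels were 328, 141 and 314 CPM in overexpression replicates 1 to 3, against 150, 190 and 121 CPM in controls 1 to 3. Overexpression replicates 1 and 3 were above every control, and replicate 2 was below control replicates 1 and 2. The log2 fold change was 0.76 (SE 0.34, unadjusted p = 0.055, adjusted p = 0.70 in edgeR). It was 0.53 without overexpression replicate 1 (adjusted p = 1.00 in edgeR), 1.06 without replicate 2 (adjusted p = 0.12 in edgeR) and 0.61 without replicate 3 (adjusted p = 0.68 in edgeR).

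Pgk1, which makes the first ATP of the pathway's payoff phase, and Ldha, which reduces pyruvate to lactate, were the genes whose groups did not overlap. Pgk1 had 1772, 1110 and 811 CPM in overexpression tumours and 730, 738 and 793 CPM in controls. Ldha had 226, 165 and 162 CPM in overexpression tumours and 140, 136 and 158 CPM in controls. In both genes overexpression replicate 1 was highest, and replicate 3 lay just above the highest control. These 2 of 10 genes stood beside 13.2% of all genes tested whose groups did not overlap in either direction, and beside 6.79% that were higher in overexpression tumours. With library totals in place of TMM the groups overlapped for all 10 genes, beside 14.9% of all genes without overlap. Without overexpression replicate 1 they also overlapped for all 10, beside 18.9%. Without overexpression replicate 2, Hk1, Aldoa, Gapdh, Pgk1 and Ldha, 5 of the 10, did not overlap, beside 39.6% of all genes, and without replicate 3 the count was 4 (Pfkl, Tpi1, Pgk1 and Ldha), beside 25.3%. The log2 fold change of Pgk1 was 0.71 (SE 0.31, unadjusted p = 0.053, adjusted p = 0.70 in edgeR), and 0.32, 0.78 and 0.94 without overexpression replicate 1, 2 and 3, in that order. For Ldha it was 0.35 (SE 0.19, unadjusted p = 0.10, adjusted p = 0.70 in edgeR), and 0.15, 0.43 and 0.44 with the same libraries left out.

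Pkm encodes the muscle-type pyruvate kinase, whose spliced forms M1 and M2 a gene total cannot separate. It took 56.5% of the counts on the 10 rows on average over libraries, a share of counts that also depends on transcript length. Its levels were 3827, 5210 and 3130 CPM in overexpression tumours and 4458, 3657 and 4765 CPM in controls. Overexpression replicate 2 was the highest library and replicate 3 the lowest, with the controls between them. The log2 fold change was -0.082 (SE 0.30, 95% interval -0.77 to 0.61, adjusted p = 0.95 in edgeR), and it was -0.075, -0.30 and 0.068 without overexpression replicate 1, 2 and 3, in that order.

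Together the 10 rows held 0.680%, 0.860% and 0.630% of all counts in overexpression replicates 1 to 3, against 0.773%, 0.665% and 0.817% in controls 1 to 3. The groups overlapped, at 0.723% ± 0.121 in overexpression tumours and 0.752% ± 0.0782 in controls (SD, n = 3 each). On the TMM scale the order of the means turned, at 7948 ± 1567 CPM in overexpression tumours and 6947 ± 618 CPM in controls (SD, n = 3 each), and the groups again overlapped. Without Pkm the other 9 rows held 0.397%, 0.329% and 0.312% in overexpression tumours and 0.287%, 0.277% and 0.297% in controls. That partial sum was above every control in all 3 overexpression tumours, and leaving out Pkm was chosen after its values were seen.

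The overexpression tumours were spread more widely than the controls. The SD of log2 CPM was larger among overexpression tumours than among controls in 9 of the 10 genes, all but Hk2, and in 76.4% of all genes tested, or 83.0% of the 6750 genes at least as abundant in CPM as the lowest of the 10. The median SD over the 10 genes was 0.52 among overexpression tumours and 0.16 among controls; over those 6750 genes it was 0.33 among overexpression tumours and 0.15 among controls. The highest overexpression tumour exceeded the lowest by 2.55-fold for Aldoa, 2.32-fold for Gapdh and 2.19-fold for Pgk1, where the controls spanned 1.08-fold, 1.56-fold and 1.09-fold.

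The overexpression tumours did not rank alike across the pathway. On the TMM scale, overexpression replicate 1 was the highest of the 6 libraries for Hk2, Aldoa, Tpi1, Gapdh, Pgk1 and Ldha. Overexpression replicate 2 was the highest for the remainder of the 10 genes, Hk1, Gpi1, Pfkl and Pkm. The same ranks were not counted over all genes tested. On that scale overexpression replicate 3 was the lowest library for 4 genes, Hk1, Gpi1, Pfkl and Pkm, yet in log2 CPM its Gapdh stood 1.05 above the control mean. Replicate 1 also had the fewest genes detected, the lowest scaling factor and the largest total. As a share of library totals it was highest only for Aldoa and Pgk1, and it replaced replicate 3 as lowest for Hk1 and Pkm. Its Hk2 had 78 estimated counts against 91 in control replicate 2, and its Gapdh 1154 against 1366 in overexpression replicate 3. With library totals in place of TMM each of the 10 log2 fold changes was lower, at 0.093 for Ldha and 0.35 for Tpi1. The part of the genes detected was not tested.

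**Figure D3:**
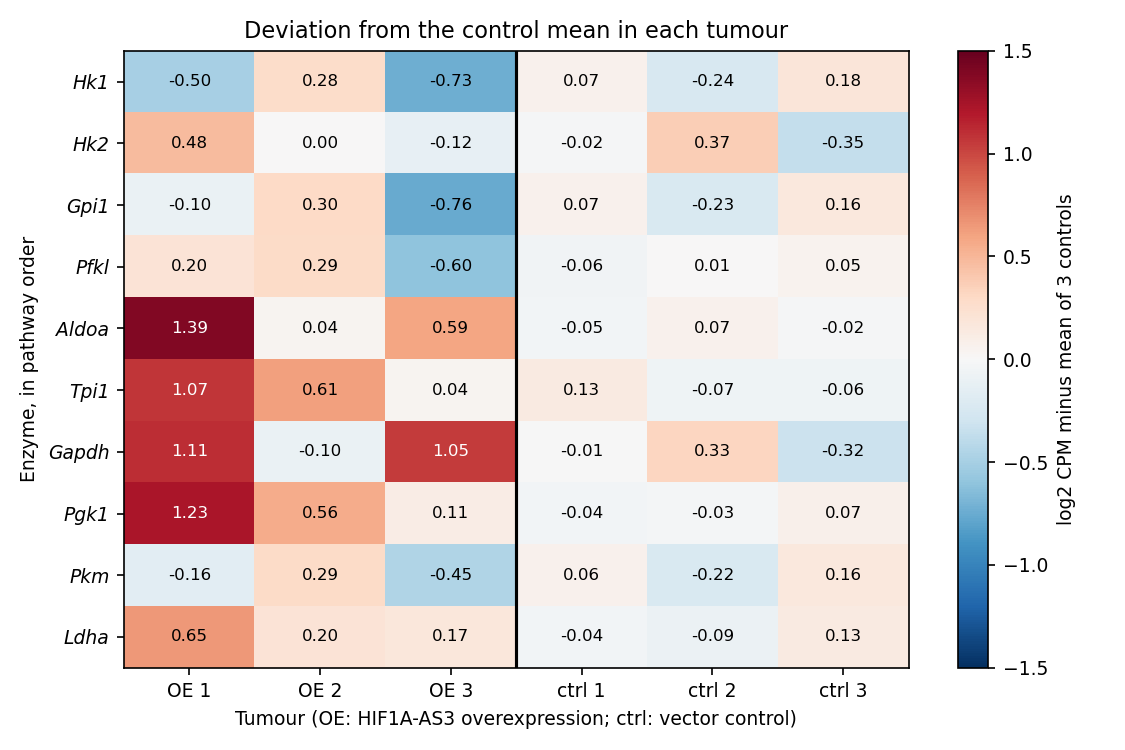
Log2 CPM of each enzyme gene in each tumour minus the mean of the 3 controls (colour and printed value), with overexpression tumours (OE) left and vector controls (ctrl) right. Overexpression replicate 1 reaches 1.39 for Aldoa and 1.23 for Pgk1, replicate 2 keeps Aldoa and Gapdh near the control mean (0.04 and -0.10), and replicate 3 is at -0.73 for Hk1 and 1.05 for Gapdh.

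Ratios of counts between genes of 1 library do not depend on scaling, so they show this unevenness directly; these pairs were chosen after their values were seen. There were 0.593, 0.171 and 0.415 Aldoa counts per Pkm count in overexpression replicates 1 to 3, against 0.188, 0.248 and 0.179 in controls 1 to 3. Overexpression replicates 1 and 3 lay above all controls and replicate 2 below all of them. For the hexokinases, the Hk2 count per Hk1 count was 0.645, 0.267 and 0.495 in overexpression tumours and 0.304, 0.500 and 0.222 in controls, and the groups overlapped.

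Of the other pairs, some varied less over the 6 libraries and some did not. Gapdh per Pgk1 spanned 3.05-fold and Aldoa per Gpi1 3.36-fold. Ldha per Pkm spanned 1.88-fold and Hk1 per Pkm 1.29-fold. The Tpi1 count per Pgk1 count lay between 0.0992 and 0.126 in the 6 libraries, a 1.27-fold range, although each gene spanned more than that among overexpression tumours alone. The Pkm count per Gpi1 count was 7.44, 7.69 and 9.62 in overexpression tumours, against 7.73, 7.79 and 7.77 in controls, a 1.29-fold range in all. The controls agreed closely, overexpression replicate 1 lay below all of them and replicate 3 above, and replicate 2 was just below.

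**Figure D4:**
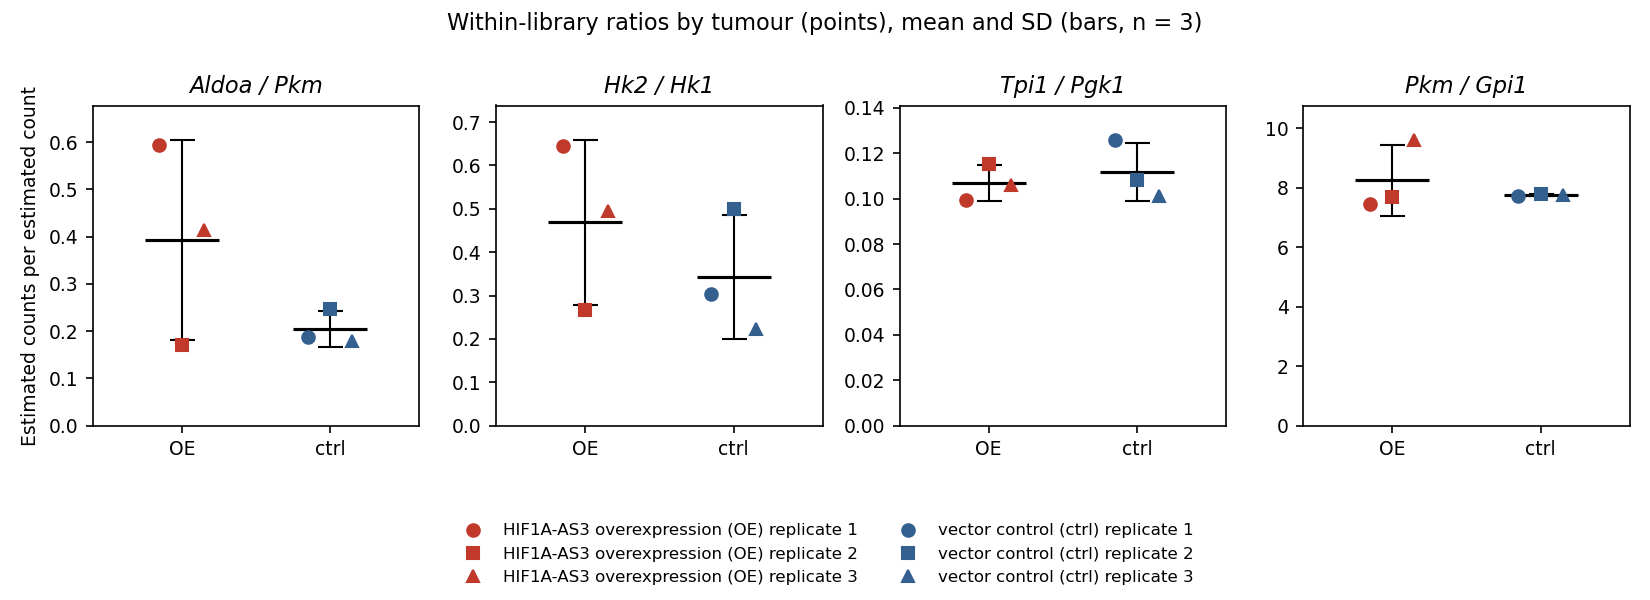
Estimated counts of 1 gene per estimated count of another within each library, for Aldoa per Pkm, Hk2 per Hk1, Tpi1 per Pgk1 and Pkm per Gpi1 (each axis starts at 0); overexpression (OE) left, vector control (ctrl) right, points are tumours, lines means and bars SD (n = 3). Aldoa per Pkm spans 0.171 to 0.593 among overexpression tumours, and Pkm per Gpi1 lies between 7.73 and 7.79 in the controls.

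Likeness of pattern was described by ranking all other tested genes by Pearson's r of log2 CPM with each of the 10 over the 6 libraries. For none of the 10 was another of these enzymes among the 3 most similar genes, and those nearest genes carry no names here. The enzymes are few among the genes ranked, so this says little about whether they vary together. Tpi1 and Pgk1 came closest to each other (r = 0.968), with Pgk1 the 29th of 12636 genes nearest to Tpi1. Gpi1 had Pkm as its 105th nearest gene (r = 0.963), while Hk1 and Gapdh ran opposite to each other (r = -0.952). Hk2 was the least tied to the others, its nearest enzyme, Aldoa, ranking 2340th.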

How the data were processed

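Total RNA from 6 xenograft tumours (1 library each, 3 per group) was made into libraries with an mRNA kit, per the labels' protocols. The authors deposited 1 table of estimated counts per gene, not normalized, with 1 column per tumour, per the file header. The submitters' processing notes name the build mm10 and, with no role for each, featureCounts 2.0.6, edgeR, DESeq2, HISAT2 2.2.1 and Trimmomatic 0.39. The table's name points to salmon, with no version or annotation given in the sources used here. No read strand, transcript length or human count was used here.

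R 4.3.3 was used, on counts rounded to the nearest whole number. filterByExpr of edgeR 4.0.16 kept 12637 of 77134 rows with 99.5% of counts. TMM scaling and a robust quasi-likelihood F-test with group as the only term followed, with Benjamini-Hochberg adjustment over all genes tested and a threshold of 0.05. The SE is the ratio of the log2 fold change to the root of F, intervals are 95% and not adjusted, and the prior count of log2 CPM was 2. In the libraries used, 3 counts stand for 0.632 to 0.852 CPM, for counting error only. DESeq2 1.42.0, limma-voom (limma 3.58.1), other scalings and filters, a block by replicate number and leaving out each library were alternatives. The fit was tested on simulated data.

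The 10 genes, the lists and the tests were chosen with earlier results of these data known, and all 10 are named. Lists set down by symbol (other glycolysis genes, host cell markers) were not analysed, since 0 of the table's IDs matched the name tables used here, which are human. Sequences of the mouse genes were not used here.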

Additional observations from a re-analysis of the deposited data

How the results depend on the processing

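None of the 10 genes passed the adjusted threshold in any of 15 alternatives, the lowest adjusted p being 0.12, for Gapdh without overexpression replicate 2. The number of all genes changed, 2 in edgeR, was 4 with library totals only, 7 with limma-voom, 14 on unfiltered rows, 28 with DESeq2 and 0 under the replicate block (414 genes at an unadjusted edgeR p under 0.05). Leaving out single libraries gave 0 to 14, 14 when overexpression replicate 2 was dropped, 1 for overexpression replicate 1 and 0 for overexpression replicate 3 or control replicate 1. The number of the 10 genes whose groups did not overlap, 2, was 0 with library totals only and 0 to 5 with 1 library left out. Aldoa, Tpi1, Gapdh, Pgk1 and Ldha kept a positive and Hk1 a negative log2 fold change in all 15. Pfkl turned to -0.037 with limma-voom, -0.23 with library totals only and -0.030 with the replicate block, and Hk2 to -0.14 with library totals only; the cause was not tested. With 1 library left out the log2 fold change spanned -0.12 to 0.33 for Hk2, -0.39 to 0.10 for Gpi1, -0.15 to 0.25 for Pfkl and -0.30 to 0.068 for Pkm. The difference in the summed share of the 10 rows, overexpression minus control, was -0.0285 percentage points of all counts, -0.0969 to 0.0181 with 1 library left out and 0.1 on TMM-scaled filtered rows. Equal replicate numbers were not treated as pairs: deviations of same-numbered libraries from their group means correlated at -0.088, -0.34 and -0.10 across genes, and no label says that a number marks a pair. The block called 0 of the 10 genes, as did the fit without it. The precision is limited by the spread between tumours: over all genes tested the median 95% interval reached 1.57-fold to either side. Among the 10 genes the widest log2 interval was that of Aldoa, from -0.032 to 1.59.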
